A study of Mus musculus with 9 samples.

Results

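The 6 loci described here are long noncoding transcripts that carry microRNA genes or lie beside them in the mouse genome. Mir22hg, Mir100hg, Mir99ahg, Mir670hg and Mir133a-1hg are named in the annotation as microRNA host genes, and Gm14636 is a noncoding gene that ends upstream of Mir222 and Mir221 on the same strand. They are 6 of 10706 names in the table used here, and all 6 were among the 2377 loci abundant enough to be tested. The first 5 were taken by name. Gm14636 was chosen by its measured FPKM in GD14.5 against virgin libraries, which were higher in a fit of these same data that treats the replicate number as a block. Results of the comparison of pregnant with virgin islets were known when the set was made, so the values of the 6 in that comparison are a description and support nothing. Islets, the clusters of endocrine cells in the pancreas, came from female mice, either virgin (5 libraries) or pregnant (GD14.5 by the labels, for the gestational day, 4 libraries). The labels give no strain, genotype, age or further treatment for either group, and they do not say whether a library is 1 animal or a pool. RNA was captured on oligo(dT) beads, and levels are FPKM, fragments counted per transcript length and per fragments of the library, a scale on which levels can be compared between genes of different length.

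A microRNA is cut from a hairpin in a longer primary transcript by the nuclear enzyme Drosha and then trimmed by Dicer in the cytoplasm. The mature strand guides an Argonaute protein to messenger RNAs that pair with its seed, a short stretch near its 5′ end, and those messages are translated less or degraded. A host transcript is the primary transcript or a spliced product of the same locus, so its level in polyadenylated RNA can differ from that of the mature microRNA. Mature microRNAs were not analysed here. In islets, microRNAs such as miR-375 and miR-7 are known for roles in beta cell growth and insulin secretion.

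The microRNAs that belong to these loci fall into a few seed families. Their mature sequences are shown so that the members whose products are alike can be recognised. They are those of RefSeq on GRCm38.p6, written 5′ to 3′, with the seed (bases 2 to 8) in capitals.
miR-221-3p: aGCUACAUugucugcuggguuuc
miR-222-3p: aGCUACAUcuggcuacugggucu
miR-100-5p: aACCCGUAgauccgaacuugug
miR-99a-5p: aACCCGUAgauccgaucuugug
miR-125b-5p: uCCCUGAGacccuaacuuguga
let-7c-5p: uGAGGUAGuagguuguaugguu
miR-22-3p: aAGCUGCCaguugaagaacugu
miR-670-5p: aUCCCUGAguguauguggugaa
miR-129-5p: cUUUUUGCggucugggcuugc
miR-221-3p and miR-222-3p have the same seed and are identical at 11 of 23 positions when aligned from the 5′ end without gaps. Only 3 of the 1679 mature names in the RefSeq table carry that seed. Of these, miR-221 and miR-222 are known to repress the cell cycle inhibitor p27 and the receptor Kit. miR-100-5p and miR-99a-5p are identical at 21 of 22 positions. They differ by A16U, where the first letter is that of miR-100-5p, the second that of miR-99a-5p, and positions count from the 5′ end. The genes for miR-125b-5p at the Mir100hg locus and downstream of Mir99ahg give the same mature sequence, the mammalian relative of worm lin-4. The let-7c seed is carried by 11 mature names, and let-7c belongs to the let-7 family, known for its part in differentiation. A let-7 gene, Mirlet7a-2, also lies inside Mir100hg, but the sequences used held no let-7a-5p for it, so none is shown. Mir670hg carries miR-670 and miR-129, whose mature sequences do not share a seed. Mir133a-1hg covers the genes of miR-133a and miR-1, which are known from heart and skeletal muscle and are given here by position only.

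The relation of gene and microRNA differs between the members. Gm14636 covers chrX:19156471-19237850 on the minus strand (GRCm38.p6, RefSeq), and the Mir222 and Mir221 hairpins lie 9.5 kb and 10.1 kb past its 3′ end. The GENCODE M21 models of Gm14636 begin 70.61 kb inside the RefSeq gene, and both hairpins lie outside them too. Mir22 lies in an exon of Mir22hg (chr11:75461539-75466690, plus strand) in both GENCODE transcripts. Mir100, Mirlet7a-2 and Mir125b-1 lie inside Mir100hg (chr9:41376526-41615185, plus strand), where Mir100 and Mirlet7a-2 are intronic in 13 of 48 GENCODE transcripts and Mir125b-1 in 24. Mir99a, Mirlet7c-1 and Mir125b-2 lie 40.5, 41.2 and 87.8 kb downstream of the RefSeq gene Mir99ahg (chr16:77329328-77558428, plus strand), yet in introns of 4 of its 17 GENCODE transcripts. Whether a transcript of that name spans its microRNAs therefore depends on the annotation. Mir670 overlaps an exon in part in 1 of 7 GENCODE transcripts of Mir670hg (chr2:94160636-94265103, minus strand) and is intronic in 4, while Mir129-2 is intronic in 3. Mir129b lies on the opposite strand of the same hairpin region. Mir133a-1, Mir1b and Mir1a-2 are intronic in the 1 GENCODE transcript of Mir133a-1hg (chr18:10778306-10791393, minus strand).

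**Figure D1:**
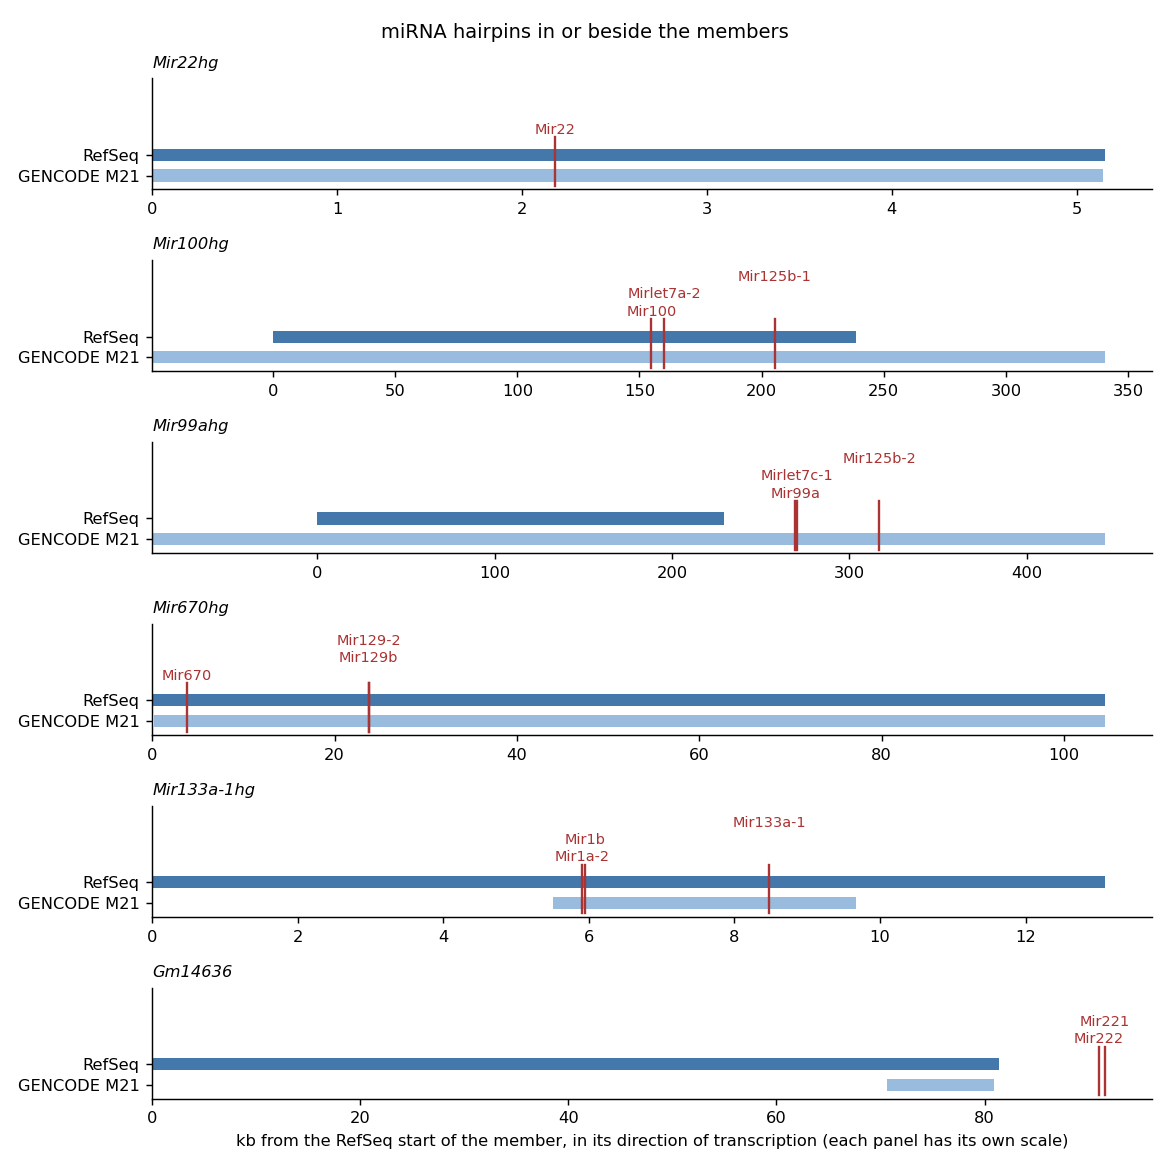
Each panel shows 1 member, with its RefSeq gene as the upper bar and the span of its GENCODE M21 models as the lower bar. The horizontal axis is distance in kb from the RefSeq start, and marks show the microRNA hairpins. Positions below refer to the RefSeq bars, and the GENCODE bar of Mir99ahg covers its hairpins. The hairpins of Mir222 and Mir221 sit 9.5 and 10.1 kb past the end of Gm14636 and those of Mir99a and Mirlet7c-1 40.5 and 41.2 kb past the end of Mir99ahg, while the hairpins drawn for the other 4 genes lie inside them. Mir3971, 84.7 kb past the end of Mir22hg, is not drawn.

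The libraries differed in scale. The FPKM of all names summed to between 5415.3 and 20530.6 per library and were highest in virgin 4, virgin 5 and GD14.5 4, and read depth is unknown. Levels are therefore given as deposited and also relative to the library, as log2(FPKM + 0.5) minus the median of the 2377 tested loci in that library. None of 10 islet endocrine, 5 acinar, 4 endothelial, 4 immune or 5 muscle marker genes had a line in the table used here, so neither the tissue label nor other cell types could be checked with them. Of 4 ductal and 5 stromal markers, Sox9 was at most 0.01 FPKM, Col1a1 was listed at 0 in all 9 libraries, and Col3a1 was at 16.23 FPKM in virgin 2, 8.46 in GD14.5 2, 8.38 in GD14.5 4 and 0 in the other 6. The part of other cell types in the member levels was not tested. In whole islets, fewer cells that make a transcript and less of it per cell cannot be told apart.

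Gm14636, the locus upstream of Mir222 and Mir221, was near the median of tested loci in virgin islets and the most abundant member at GD14.5. Its summed FPKM was 0.75, 0.92, 0.58, 3.59 and 3.08 in virgin 1 to 5 and 3.70, 3.58, 3.96 and 13.79 in GD14.5 1 to 4. Virgin 4 and 5, of high summed FPKM, were the highest virgin libraries. Virgin 4 at 3.59 was above GD14.5 2 at 3.58 and virgin 5 was below every GD14.5 library, so the groups overlapped as deposited through virgin 4 alone, where 0.421% of tested loci had every GD14.5 library above every virgin library. The means were 1.78 ± 1.43 FPKM (SD, n = 5) and 6.26 ± 5.02 FPKM (SD, n = 4). Relative to the library median, Gm14636 stood at 0.18, −0.28, −0.36, 0.60 and 0.24 log2 units in virgin 1 to 5 and at 1.70, 1.57, 1.70 and 2.71 in GD14.5 1 to 4. On that scale every GD14.5 library lay above every virgin library, as did those of 2.52% of all tested loci. The ratio of GD14.5 to virgin FPKM in libraries of the same number was 4.93, 3.89, 6.83 and 3.84 for numbers 1 to 4. As deposited, GD14.5 4, the highest library, did not give the highest ratio, but library scale enters these ratios. Relative to the library medians, the log2 differences of the same pairs were 1.52, 1.86, 2.07 and 2.11, the highest for number 4.

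**Figure D2:**
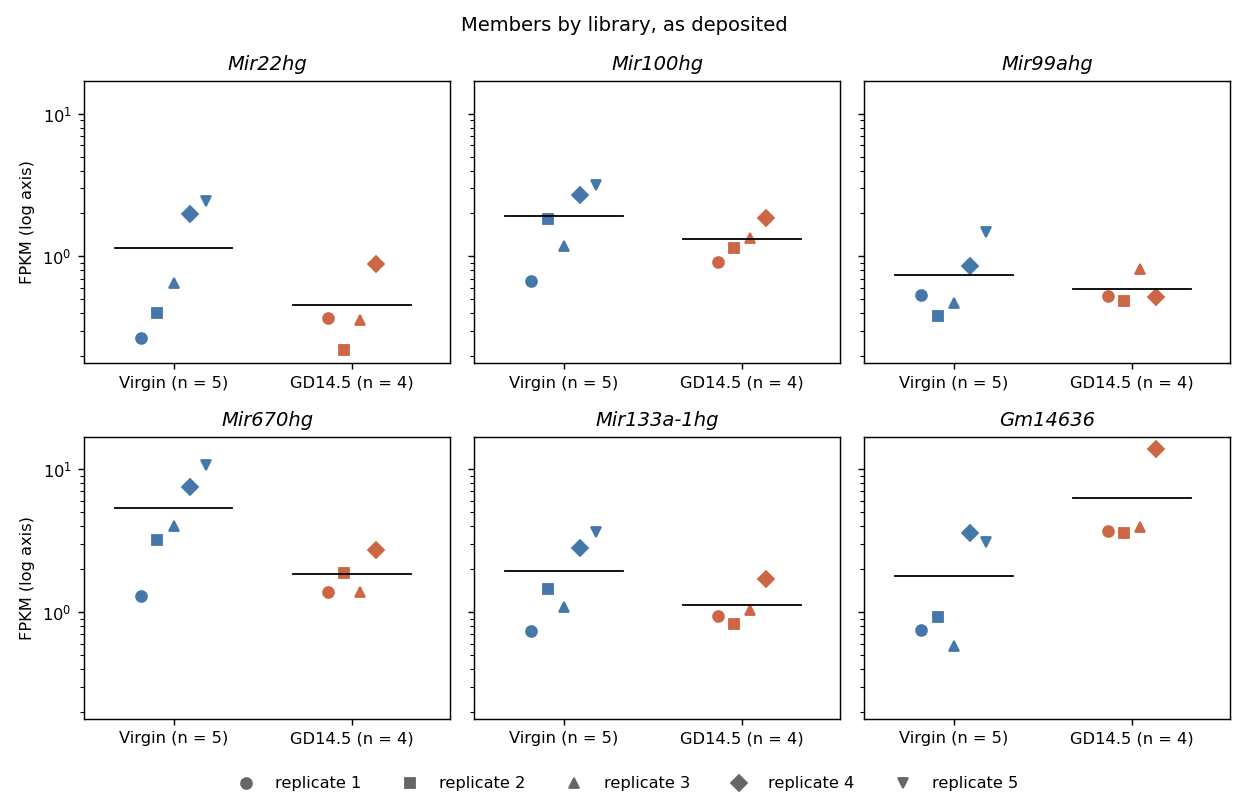
The panels show FPKM of the 6 loci on the vertical axis for each library, with the bar at the group mean. Gm14636 reaches 13.79 FPKM in GD14.5 4 and the other 3 GD14.5 libraries lie between 3.58 and 3.96, while virgin 4 and virgin 5 are the highest virgin libraries in all 6 panels.

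The fitted log2 difference of Gm14636, GD14.5 minus virgin on the log2(FPKM + 0.5) scale, was 1.56 ± 0.51 (SE) on deposited values, 1.78 ± 0.19 with the replicate number as a block and 1.85 ± 0.28 with equal library medians. The median difference of all tested loci under these 3 fits was −0.30, −0.13 and −0.02. Gm14636 had the 10th highest difference of 2377 loci as deposited and the 13th highest with the block. It missed the threshold of limma (Benjamini-Hochberg adjusted p of 0.05) on deposited values and passed it under the block and after equalising medians. Because this contrast chose the locus, no p is given for it. Without the 3 libraries of high summed FPKM the difference was 1.77, and it passed. Gm41892, a noncoding gene that overlaps the 5′ end of Gm14636 by 1005 bp, averaged 0.020 ± 0.0245 FPKM over the 5 virgin libraries and 0.050 ± 0.0392 (SD) over the 4 GD14.5 libraries, below the minimum for testing. The table gave 5 genes within 50 kb of a member, Gm41892 among them, and none reached that minimum. Strand use in the counting is not given, so reads of overlapping genes cannot be told apart.

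The hosts of the miR-100 and miR-99a clusters overlapped between the groups on both scales. Mir100hg was at 0.67, 1.83, 1.18, 2.69 and 3.18 FPKM in virgin 1 to 5 and at 0.92, 1.14, 1.35 and 1.86 in GD14.5 1 to 4. The highest values again belonged to virgin 4 and 5, and all GD14.5 values lay within the virgin range. Relative to the library median, Mir100hg ranged from 0.09 to 0.43 in virgin and from 0.11 to 0.43 in GD14.5 libraries, the smallest spread of the 6 loci (SD 0.12 over 9 libraries, against 0.54 as deposited). Its log2 difference was −0.31 ± 0.40 as deposited, −0.13 ± 0.20 under the block and −0.03 ± 0.11 with equal medians, and in the last fit the 95% interval ran from −0.27 to 0.21. Mir99ahg was at 0.54, 0.38, 0.47, 0.86 and 1.48 FPKM in virgin 1 to 5 and at 0.53, 0.49, 0.82 and 0.52 in GD14.5 1 to 4. Virgin 5 was the highest library, and GD14.5 3 stood above the other GD14.5 libraries. Its difference was −0.14 ± 0.33 as deposited and had the opposite sign under the block (0.05 ± 0.18) and after equalising medians (0.15 ± 0.24), so no direction is given. Mir100hg was above Mir99ahg in 5 of 5 virgin and 4 of 4 GD14.5 libraries.

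Mir22hg, whose exon holds miR-22, was at 0.27, 0.40, 0.65, 1.99 and 2.43 FPKM in virgin 1 to 5 and at 0.37, 0.22, 0.36 and 0.89 in GD14.5 1 to 4. Virgin 4 and 5 lay above all other libraries, and the rest overlapped. Relative to the library median the virgin libraries ran from −0.94 to −0.05 and the GD14.5 libraries from −0.93 to −0.57. The log2 difference was −0.61 ± 0.40 on deposited values, −0.35 ± 0.19 under the block and −0.33 ± 0.18 after equalising medians, and each 95% interval included 0.

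Mir670hg, the locus of miR-670 and miR-129, was the most abundant member in virgin islets. It was at 1.29, 3.22, 4.00, 7.48 and 10.77 FPKM in virgin 1 to 5 and at 1.38, 1.87, 1.38 and 2.72 in GD14.5 1 to 4. Virgin 1 lay below all GD14.5 libraries, whereas virgin 2 to 5 lay above all of them. The means were 5.35 ± 3.77 FPKM (SD, n = 5) and 1.84 ± 0.632 FPKM (SD, n = 4). Relative to the library median, Mir670hg stood at 0.70, 1.10, 1.69, 1.57 and 1.89 log2 units in virgin 1 to 5 and at 0.54, 0.79, 0.46 and 0.56 in GD14.5 1 to 4, so virgin 1 was the only virgin library within the GD14.5 range. The ratio of GD14.5 to virgin FPKM was 1.07, 0.581, 0.345 and 0.364 for numbers 1 to 4. The log2 difference was −1.09 ± 0.50 on deposited values, −0.79 ± 0.25 under the block and −0.80 ± 0.23 after equalising medians. It was the 18th lowest of 2377 loci as deposited, and it passed the threshold under none of these 3 fits.

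Mir133a-1hg, the muscle microRNA host, was at 0.74, 1.45, 1.08, 2.79 and 3.63 FPKM in virgin 1 to 5 and at 0.94, 0.82, 1.04 and 1.71 in GD14.5 1 to 4. The groups overlapped as deposited, with virgin 4 and 5 again the highest. Relative to the library median it ranged from 0.17 to 0.44 in virgin and from −0.05 to 0.17 in GD14.5 libraries. The GD14.5 libraries lay below the virgin ones on that scale, as did those of 2.23% of all tested loci, but the gap was 0.1727 against 0.1688 at its nearest point. The log2 difference was −0.47 ± 0.40 as deposited, −0.24 ± 0.20 under the block and −0.18 ± 0.10 with equal medians.

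**Figure D3:**
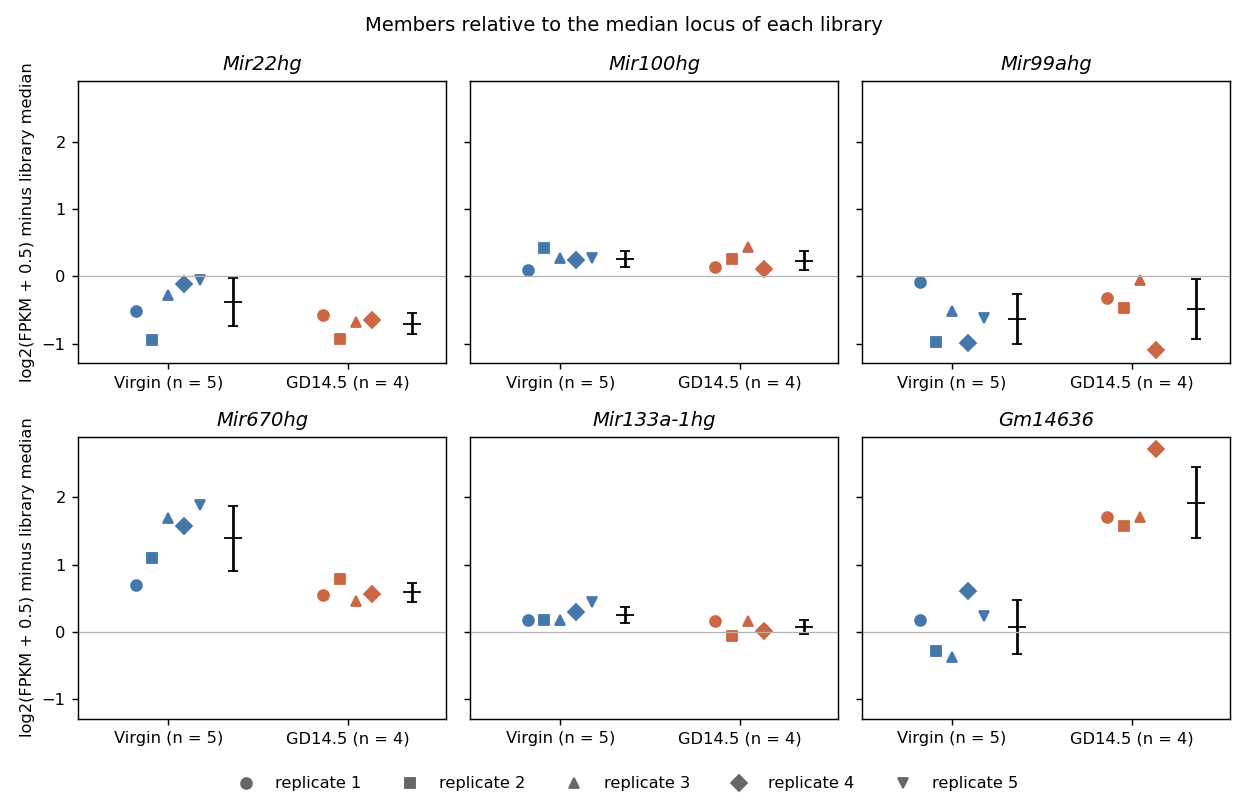
Points are single libraries on the vertical scale of log2(FPKM + 0.5) minus the library's median over 2377 tested loci, so 0 is the typical locus. Gm14636 lies at 1.57 to 2.71 in GD14.5 and −0.36 to 0.60 in virgin libraries, Mir670hg at 0.46 to 0.79 and 0.70 to 1.89, and Mir100hg at about the same height in both groups.

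The order of the members by mean FPKM differed between the groups. In virgin islets it was Mir670hg (5.35), Mir133a-1hg (1.94), Mir100hg (1.91), Gm14636 (1.78), Mir22hg (1.15) and Mir99ahg (0.746). Mir670hg was the highest member in 5 of 5 virgin libraries, but Mir133a-1hg was above Mir100hg in 3 and below it in 2, and Mir100hg was above Gm14636 in 3 and below it in 2, so these 3 neighbours were not separated. At GD14.5 it was Gm14636 (6.26), Mir670hg (1.84), Mir100hg (1.32), Mir133a-1hg (1.13), Mir99ahg (0.590) and Mir22hg (0.460). Gm14636 was above Mir670hg in 4 of 4 GD14.5 libraries, the reverse of the virgin libraries. Mir99ahg was above Mir22hg in 3 of 4 GD14.5 libraries and below it in 4 of 5 virgin libraries. The FPKM of Gm14636 divided by the sum of the 5 hosts, a ratio that library scale does not enter, was 0.214, 0.126, 0.0786, 0.227 and 0.143 in virgin 1 to 5 and 0.894, 0.789, 0.800 and 1.79 in GD14.5 1 to 4. All GD14.5 ratios were above all virgin ratios. Mir670hg, the host with the highest mean in both groups, had a lower mean at GD14.5, which widens this gap. Gm14636 was chosen by this contrast and no share over all loci was computed for such a ratio, so nothing is read from it.

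Among the 6 members, 0 passed the threshold as deposited, where 0.168% of the 2377 loci passed (4 higher, 0 lower), and 2 of the 6, Gm14636 and Mir670hg, had p under 0.05 before adjustment, against 2.52% of all loci. Under the replicate block 1 of 6 passed (Gm14636), against 1.09% of all loci (23 higher, 3 lower), and with equal library medians again 1 of 6, against 0.968% (22 higher, and 1 or 0.0421% lower). With both together it was 1 of 6, against 0.631%, all higher. The rule used this contrast, so nothing is read from these counts.

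**Figure D4:**
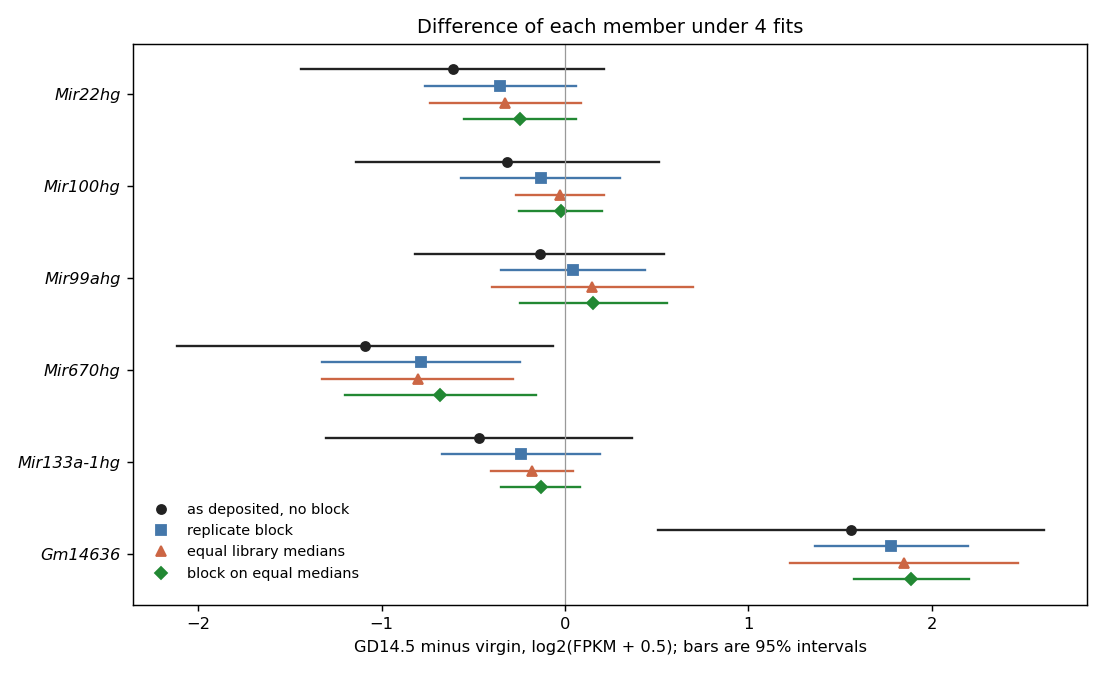
The horizontal axis is the log2 difference, GD14.5 minus virgin, on the log2(FPKM + 0.5) scale, with 95% intervals from limma for each fit. Gm14636 lies between 1.56 and 1.89 in the 4 fits and Mir670hg between −1.09 and −0.68, and the intervals of Mir100hg and Mir99ahg include 0 in each.

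Several members consist of more than 1 transcript line in the table, which carries no transcript identifiers, so lines are numbered by their order under a name. All 3 lines of Gm14636 had values above 0 in all 9 libraries. Line 3 held 44.0%, 39.1%, 34.5%, 46.8% and 43.5% of the locus in virgin 1 to 5 and 58.9%, 54.2%, 47.5% and 48.7% in GD14.5 1 to 4. Its mean share was 41.6% ± 4.83 (SD, n = 5) and 52.3% ± 5.27 (SD, n = 4), with all GD14.5 libraries above all virgin ones, the nearest being 47.5% and 46.8%. Among 1597 lines whose shares could be compared, 1.44% lay above in this way and 1.5% below. The share of line 2 was 29.2% ± 6.53 in virgin and 19.5% ± 4.03 in GD14.5 libraries, and that of line 1 was 29.3% and 28.1%. With the block, the log2 differences of lines 1, 2 and 3 were 1.20 ± 0.17, 0.89 ± 0.19 and 1.67 ± 0.17. Lines 1 and 3 passed and line 2 did not, against 1.1% of 2548 lines called higher, and as deposited none of the 3 passed, against 0.118%. All 3 lines had positive differences. The lines sum to a locus that this contrast chose, so their calls and signs are a description and nothing is read from them.

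Mir670hg had 13 lines, of which line 9 held 49.8% of the mean level. Its share was 47.0% ± 7.96 in virgin (SD, n = 5) and 55.3% ± 6.58 in GD14.5 libraries (SD, n = 4), and the groups overlapped. Line 3 held 10.1% to 23.0% in virgin libraries and 8.70%, 16.6%, 35.5% and 35.3% in GD14.5 1 to 4, where GD14.5 3 and 4 stood above all others. Mir100hg had the most lines, 42, but 16 were listed at 0 in every library and none reached a mean of 0.5 FPKM, and its leading line held 29.4%. In Mir99ahg, with 9 lines, line 3 was at 0 in virgin 1 to 4 and held 29.1% in virgin 5, 7.55% in GD14.5 1, 30.6% in GD14.5 2 and 40.2% in GD14.5 3, but 0 in GD14.5 4. GD14.5 3 was also the library where the summed level of Mir99ahg stood out. Mir22hg had a single line, and line 2 of Mir133a-1hg held 98.9% of its locus.

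**Figure D5:**
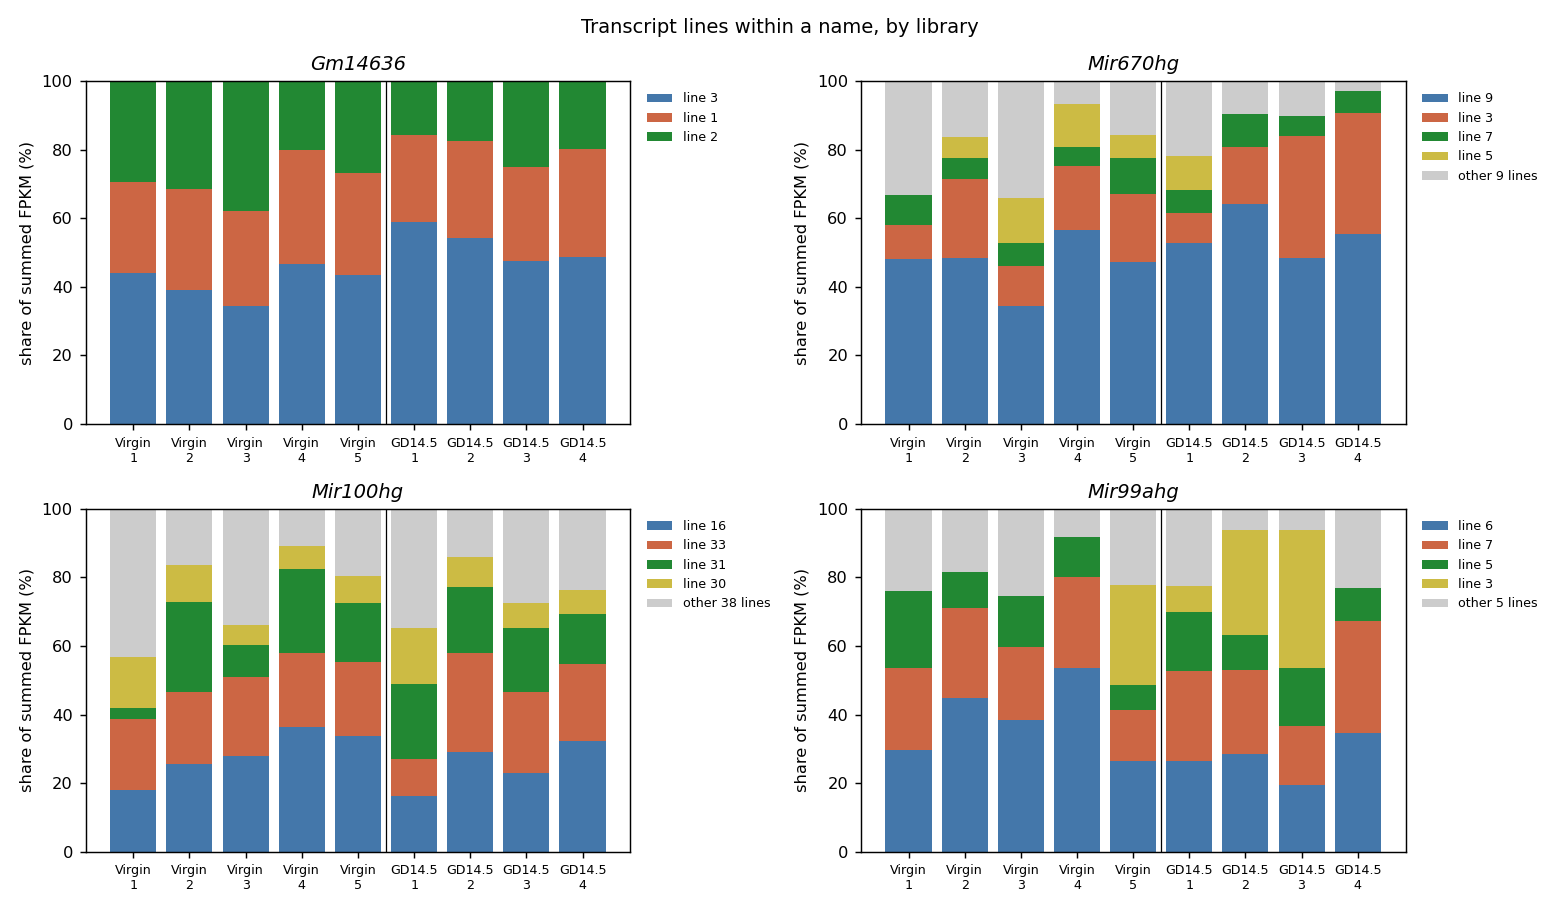
Bars are libraries, and colours give the share of each transcript line in the summed FPKM of its locus, in percent. Line 3 of Gm14636 takes 47.5% to 58.9% in GD14.5 and 34.5% to 46.8% in virgin libraries, and line 3 of Mir99ahg appears in virgin 5 and GD14.5 1 to 3 but not in the other libraries.

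The loci most like each member were found by Pearson correlation of the relative levels over the 9 libraries, given as a description, since the points share libraries and the 2 groups. For Gm14636 these were Kirrel3os (0.99), the X-linked coding-gene locus Lonrf3 (0.99) and 5730420D15Rik (0.98), against a median of −0.04 over all tested loci. Kirrel3os averaged 2.85 ± 2.41 FPKM over the 5 virgin and 9.50 ± 7.50 FPKM (SD) over the 4 GD14.5 libraries. For Mir670hg they were Gm46122 (0.98), Gm32250 (0.96) and Gm51431 (0.95), all noncoding. Gm46122 stood at 5.52 ± 3.77 and 2.09 ± 0.616 FPKM. For Mir22hg they were Gm46265 (0.94), a noncoding gene also on chromosome 11, 4930525G20Rik (0.93) and Gm30635 (0.90). Gm31432 (0.93), Cep112it (0.89) and Gm42151 (0.88) followed Mir100hg, and Gm31432 is likewise on its chromosome, 9. Gm40155 (0.92), 9430083M05Rik (0.92) and 1700034H15Rik (0.90) followed Mir99ahg. Gm27222 (0.91), Gm14154 (0.89) and Gm35474 (0.85) followed Mir133a-1hg. Between members the coefficients ran from −0.70 (Mir670hg with Gm14636) to 0.79 (Mir22hg with Mir133a-1hg).

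Other names listed as microRNA hosts gave a background for the members. The list was made by name, and Pvt1, which was tested, has no microRNA gene inside its RefSeq gene body. Of 27 such names, 21 had a line and 7 were tested, and 0 of the 7 passed limma's threshold in either direction in the fit of deposited values, under the block or after equalising medians, and 0 of them had an unadjusted p under 0.05. Over all 2377 loci, 0.168%, 1.09% and 0.968% passed in these 3 fits, and 2.52%, 9.3% and 8.54% had an unadjusted p under 0.05. A count of 0 of 7 therefore does not set these names apart. Their median log2 difference was −0.37 as deposited and −0.08 with the block, beside −0.30 and −0.13 for all loci. The 4 most abundant were Meg3 and Rian, imprinted hosts of the chromosome 12 microRNA cluster, at −0.30 ± 0.60 and −0.37 ± 0.65, Mirg of the same cluster at −0.43 ± 0.58, and the X-linked Ftx at −0.45 ± 0.59 (log2 difference ± SE as deposited). A second set was 71 tested loci whose RefSeq gene body contains a microRNA gene. It shares Meg3, Rian, Mirg, Ftx, Dleu2 and Carmn with the list above. Its median was −0.34 as deposited. None of the 71 passed there and 2 had an unadjusted p under 0.05, a share near the 2.52% of all loci. With the block 1 of the 71 was called higher, against 0.968% of all loci. This was Gm35853, named because it alone passed. The most abundant of them were Meg3, Rian, Gprasp1 (−0.55 ± 0.66) and Ptbp1 (−0.15 ± 0.56). Messenger RNA of most known targets could not be followed. Of 10 targets of miR-221 and miR-222, 3 had a line and 1 was tested, the proapoptotic Bcl2l11 at −0.34 ± 0.38. Of 19 islet microRNA hosts and precursors, only Slit3, the miR-218 host, was tested, at 0.18 ± 0.50. Of 22 genes of microRNA biogenesis, 1 had a line, and it was not tested.

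RefSeq gave 9 promoter windows (250 bases before to 50 after a start) for 5 members, and none is shown for Mir133a-1hg. They were searched on both strands for TTCNNNGAA, the core of the site bound by STAT5, which acts downstream of the prolactin receptor in islets during pregnancy. One window matched, that of Mir99ahg, with TTCTGTGAA 112 bases before the start, and 8.3% of 32851 promoters in the table hold such a match. The GC box GGGCGG, a motif known to be bound by Sp1, was found 7 times in the Gm14636 window on either strand, overlaps included. It was found 2 times at Mir22hg and at none of the other members' windows. At least 1 match is present in 35.7% of all promoters, and at least as many as in Gm14636 in 0.627%. The motif search for GC boxes was added after the windows had been seen. The Gm14636 window, chrX:19237801-19238100 on the minus strand of GRCm38.p6, has a GC content of 67.3%, against a median of 52.7%. At least that content is found in 13.8% of all promoters. The window is shown because it is the start of the member with the greatest difference. GC boxes are in capitals.
Gm14636 promoter: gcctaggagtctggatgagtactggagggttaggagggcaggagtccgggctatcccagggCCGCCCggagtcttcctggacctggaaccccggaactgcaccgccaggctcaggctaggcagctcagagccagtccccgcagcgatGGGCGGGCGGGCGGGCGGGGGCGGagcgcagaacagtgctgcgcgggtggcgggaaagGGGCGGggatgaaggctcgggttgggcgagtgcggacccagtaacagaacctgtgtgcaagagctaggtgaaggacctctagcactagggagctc
A match describes letters in this window and not binding, and the GENCODE models of Gm14636 begin 70.61 kb from this start.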

How the data were processed

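Islet RNA of 5 virgin and 4 GD14.5 libraries was measured by RNA sequencing after oligo(dT) enrichment, per the labels' protocols. The authors deposited FPKM to 2 decimals for single transcripts that carry gene names only. Per the submitters' processing notes, GRCm38.p6 was the build. Not given in the sources used here: aligner, quantifier, annotation and use of strand. Of 26375 lines, 480 with a copy suffix were left out. FPKM of lines with the same name were summed, giving 10706 names, of which 10705 matched RefSeq on GRCm38.p6. The pregnant columns are headed by another day than the labels give, and groups follow the labels.

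GD14.5 was compared with virgin by limma 3.58.1 in R 4.3.3 on log2(FPKM + 0.5), with a variance trend, two-sided, with Benjamini-Hochberg adjustment over 2377 loci with a mean of at least 0.5 FPKM and a threshold of 0.05. This scale understates the change of low loci. The script was tested on simulated data with a smaller residual spread than these data and, for the fit without a block, no library effects. That test does not cover the scale differences between these libraries in the fit of deposited values. The p-values measure the spread between libraries, which may be technical. Read depth is unknown, so no counting interval is given. Deviations of same-numbered libraries from their group means correlated at 0.49, 0.20, 0.28 and 0.59. All were over 0.1, the limit used here to treat the numbers as pairs, which the labels do not state. Some pairs of unlike number were over it too. These were virgin 2 with GD14.5 1 (0.23), virgin 3 with GD14.5 2 (0.25) and virgin 5 with GD14.5 4 (0.49). Virgin 1 and virgin 2 with GD14.5 3 gave 0.14 and 0.18. The other pairs of unlike number were under 0.1. GD14.5 2 correlated more with virgin 3 than with virgin 2, so the pairing is uncertain. The block fit is therefore printed beside each member's difference. Virgin 5, without a partner, does not enter its differences.

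The members, lists and tests were chosen with earlier results of these data known. All members are named, with the 3 loci most correlated with each, and from each list the tested genes or, beyond 6, the 4 most abundant. Alternatives were the block, 3 other scalings (equal medians, equal totals, quantile normalization), other pseudocounts, other filters, no variance trend and leaving out libraries. Coordinates count from 1.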

Additional observations from a re-analysis of the deposited data

Results flagged for a closer look

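In groups of 4 or 5 libraries, the highest or lowest value of each member was set against the gap to its nearest neighbour (Dixon's ratio at the 95% level). Of 12 groups tested 2 stood out, where chance gives about 1 in 20, or 0.6. Gm14636 in GD14.5 4 was at 3.84 on the log2(FPKM + 0.5) scale (13.79 FPKM), while the other GD14.5 libraries were at 2.03 to 2.16. That library also had the highest summed FPKM of its group, and relative to its median Gm14636 was still the highest, at 2.71 against 1.57 to 1.70. Mir99ahg in GD14.5 3 was at 0.40 (0.82 FPKM), while the others were at −0.01 to 0.04. In that library line 3 of Mir99ahg held 40.2% of the locus.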

How the results depend on the processing

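As deposited, 4 loci and 0 members passed. Loci called were 26 with the replicate block (23 higher, 3 lower), 23 with equal medians (22, 1), 15 with both (15, 0), 31 with equal totals (25, 6) and 29 with quantile normalization (24, 5), and 1 member, Gm14636, was called in each. Without the 3 libraries of highest summed FPKM, chosen after seeing the data, they were 14 (13, 1), with the block 50 (37, 13) and with equal medians 13 (13, 0), and 1 member was called in each. Leaving out each library in turn gave 3 to 5 loci and 0 members as deposited, 19 to 55 loci and 1 member with the block, and 9 to 21 loci and 0 to 1 members with equal medians. Gm14636 was lost with equal medians without virgin 2, and the loci under the block were 55 without virgin 3 and 54 without GD14.5 3. The cause was not tested.

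The difference of Gm14636 was 1.78 with the replicate block, 1.85 with equal medians, 1.89 with both, 1.87 with equal totals and 1.85 with quantile normalization, each past the threshold, and 1.77 without the 3 libraries, 1.77 with the block and 1.81 with equal medians. Leaving out each library gave 1.12 to 1.83 as deposited, 1.69 to 1.87 with the block and 1.58 to 1.98 with equal medians. Mir99ahg changed sign, to 0.046 with the block, 0.15 with equal medians, 0.15 with both, 0.058 with equal totals and 0.11 with quantile normalization, to 0.20, 0.20 and 0.24 without the 3 libraries, and to values from −0.25 to 0.05 without single libraries as deposited, −0.09 to 0.20 with the block and 0.01 to 0.35 with equal medians. Mir100hg reversed to 0.013 with equal medians without the 3 libraries, and without single libraries ranged from −0.54 to −0.13 as deposited, −0.27 to −0.0054 with the block and −0.092 to 0.015 with equal medians. Mir22hg, Mir670hg and Mir133a-1hg kept a negative difference in every fit run and did not pass.

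Depth is unknown, 9 libraries limit precision, and transcript lines have no identifiers. Pseudocounts of 0.1 and 1 and a minimum of 1 FPKM left 4 calls, and no filter left 3 of 10284. That minimum leaves 4 of the 6 members.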
